A study of Mus musculus with 9 samples.

Results

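The ADAM and ADAMTS family of metalloproteases and their protease-free relatives was followed through 3 states of the mouse femoral artery media. Members were all genes whose deposited name starts with Adam, Adamts or Adamtsl directly followed by a digit. This rule used no measured value and found 36 of the 17093 genes that the 3 deposited tables hold together. There were 36 members among 16315 genes in the table of injured and sham arteries, 35 among 16933 in that of inhibitor-treated and injured arteries, and 34 among 16187 in that of inhibitor-treated and sham arteries. Adamts16 had no row in the table of inhibitor-treated and sham arteries, and Adamts19 had one only in that of injured and sham arteries.

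ADAM proteins are anchored in the cell membrane, and those with an active site act as sheddases, cutting growth factors, cytokines, Notch receptors and adhesion molecules loose from the cell surface. ADAMTS proteins are secreted, bind the extracellular matrix through thrombospondin repeats, and cleave proteoglycans such as versican and aggrecan, the propeptides of collagens, or cartilage oligomeric matrix protein (COMP). The ADAMTS-like proteins keep the thrombospondin repeats but lack the protease domain, and several bind fibrillin microfibrils. In arteries these proteins are known for turning over the matrix around smooth muscle cells and for the release of membrane-bound signals.

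The 9 libraries come from C57BL/6 mice, with 3 per group. The inhibitor-treated group is wire-injured arteries of mice gavaged with VS-4718, an inhibitor of focal adhesion kinase (FAK), at 50 mg/kg in 2 doses a day for 2 weeks. The injured group is wire-injured arteries, and the sham group is sham-operated arteries, with citrate buffer as the vehicle per the labels. Wire-injured arteries were taken 2 weeks after injury, and all arteries were freed of fat and adventitia, and rinsed inside with a lysis reagent to strip endothelial and immune cells. The number of mice per library is not in the labels, and p-values therefore reflect only how far these libraries spread, which may be technical. By its title the study is about FAK and the change of smooth muscle cells away from their contractile state. Members were compared in injured against sham, inhibitor-treated against injured, and inhibitor-treated against sham arteries.

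The libraries held between 14676405 and 21247261 reads. Summed over 10 markers, contractile smooth muscle transcripts came to between 651725 and 665382 normalised counts per library in inhibitor-treated arteries, 175271 to 202955 in injured arteries and 560974 to 743224 in sham arteries, so the labelled tissue was present throughout. The summed macrophage and monocyte markers lay between 4828.7 and 8676 in inhibitor-treated, 27999 and 41288 in injured, and 2911 and 4083 in sham libraries, with none of the 10 markers at 0. T and B lymphocyte markers summed to between 728 and 2516 in inhibitor-treated, 2335 and 6150 in injured, and 143 and 234 in sham libraries. For lymphocytes, and for the neutrophil sums given below, every inhibitor-treated library was above every sham library. Some libraries stood apart from their group on markers of other tissues. The skeletal muscle sum was 521137 in injured library 2, against at most 60756 in the other injured libraries. It was 29865 in sham library 3, against at most 7461 in the other sham libraries, and 36808 in inhibitor-treated library 2, against at most 8285 in the other inhibitor-treated libraries. The hepatocyte sum was 32529 in inhibitor-treated library 3, against at most 2565 in the other inhibitor-treated libraries. Erythroid markers summed to between 41905 and 92459 in inhibitor-treated libraries, at most 4090.0 in injured libraries and at most 6541 in sham libraries. Alas2 made up most of this in inhibitor-treated libraries, at 30976, 72797 and 43268, while the globin genes overlapped sham levels. Hba-a1 had 1285, 1157 and 1470 in inhibitor-treated and 2523, 1461 and 2650 in sham libraries. Hbb-bs had 2841, 2586 and 2287 against 3700, 1899 and 3389. Of 8 erythroid markers tested in inhibitor-treated against sham arteries, 6 rose and 2 did not pass. The part of these cell mixtures in the results below was not tested, and in bulk RNA fewer cells of a type cannot be told apart from less RNA per cell.

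Levels are normalised read counts scaled across all 9 libraries and are listed in the order of replicates 1, 2 and 3. Fold changes, their standard errors and p-values come from limma within the table of each pair of groups, on log2(normalised count + 1), with Benjamini-Hochberg adjustment over all genes of that table. A member is said to have risen or fallen where its adjusted p was under 0.05. The 3 comparisons share libraries, so their values are given side by side and are not independent of each other.

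In injured against sham arteries, 13 of 36 members rose, 7 fell and 16 did not pass the test. Over all 16278 genes tested, 20.6% rose and 16.8% fell. Group ranges were separate for 22 members, against 51.3% of all genes. The median log2 fold change of the members was 0.22, with a range of -1.92 to 4.13, and that of all genes was -0.003. In inhibitor-treated against injured arteries, 9 of 35 members rose, 13 fell and 13 did not pass, where 17.6% of 16901 genes rose and 18.5% fell. The groups did not overlap for 24 members, against 51.6% of all genes, and the median log2 fold change was -0.27 for the members and 0.01 for all genes.

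In inhibitor-treated against sham arteries, 2 of 34 members rose and none fell by limma. Of 16166 genes, 5.15% rose and 0.934% fell. At an unadjusted limma p under 0.05, 5 members were higher and 3 lower. The share of all genes at that threshold was not computed, so these counts show neither an excess nor a lack. After adjustment, edgeR called 1 member higher and 0 lower, and DESeq2 called 3 higher and 1 lower. The groups did not overlap for 7 members, against 27.9% of all genes, and the median log2 fold change was 0.02 for the members and -0.01 for all genes. Read against these shares, members rose more often than genes in general in injured against sham arteries (13 of 36 against 20.6%). Falls there were near the general share (7 of 36 against 16.8%). In inhibitor-treated against injured arteries, rises (9 of 35 against 17.6%) and falls (13 of 35 against 18.5%) were both more frequent. Calls in inhibitor-treated against sham arteries came at about the general rate. This is a description with no test.

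**Figure D1:**
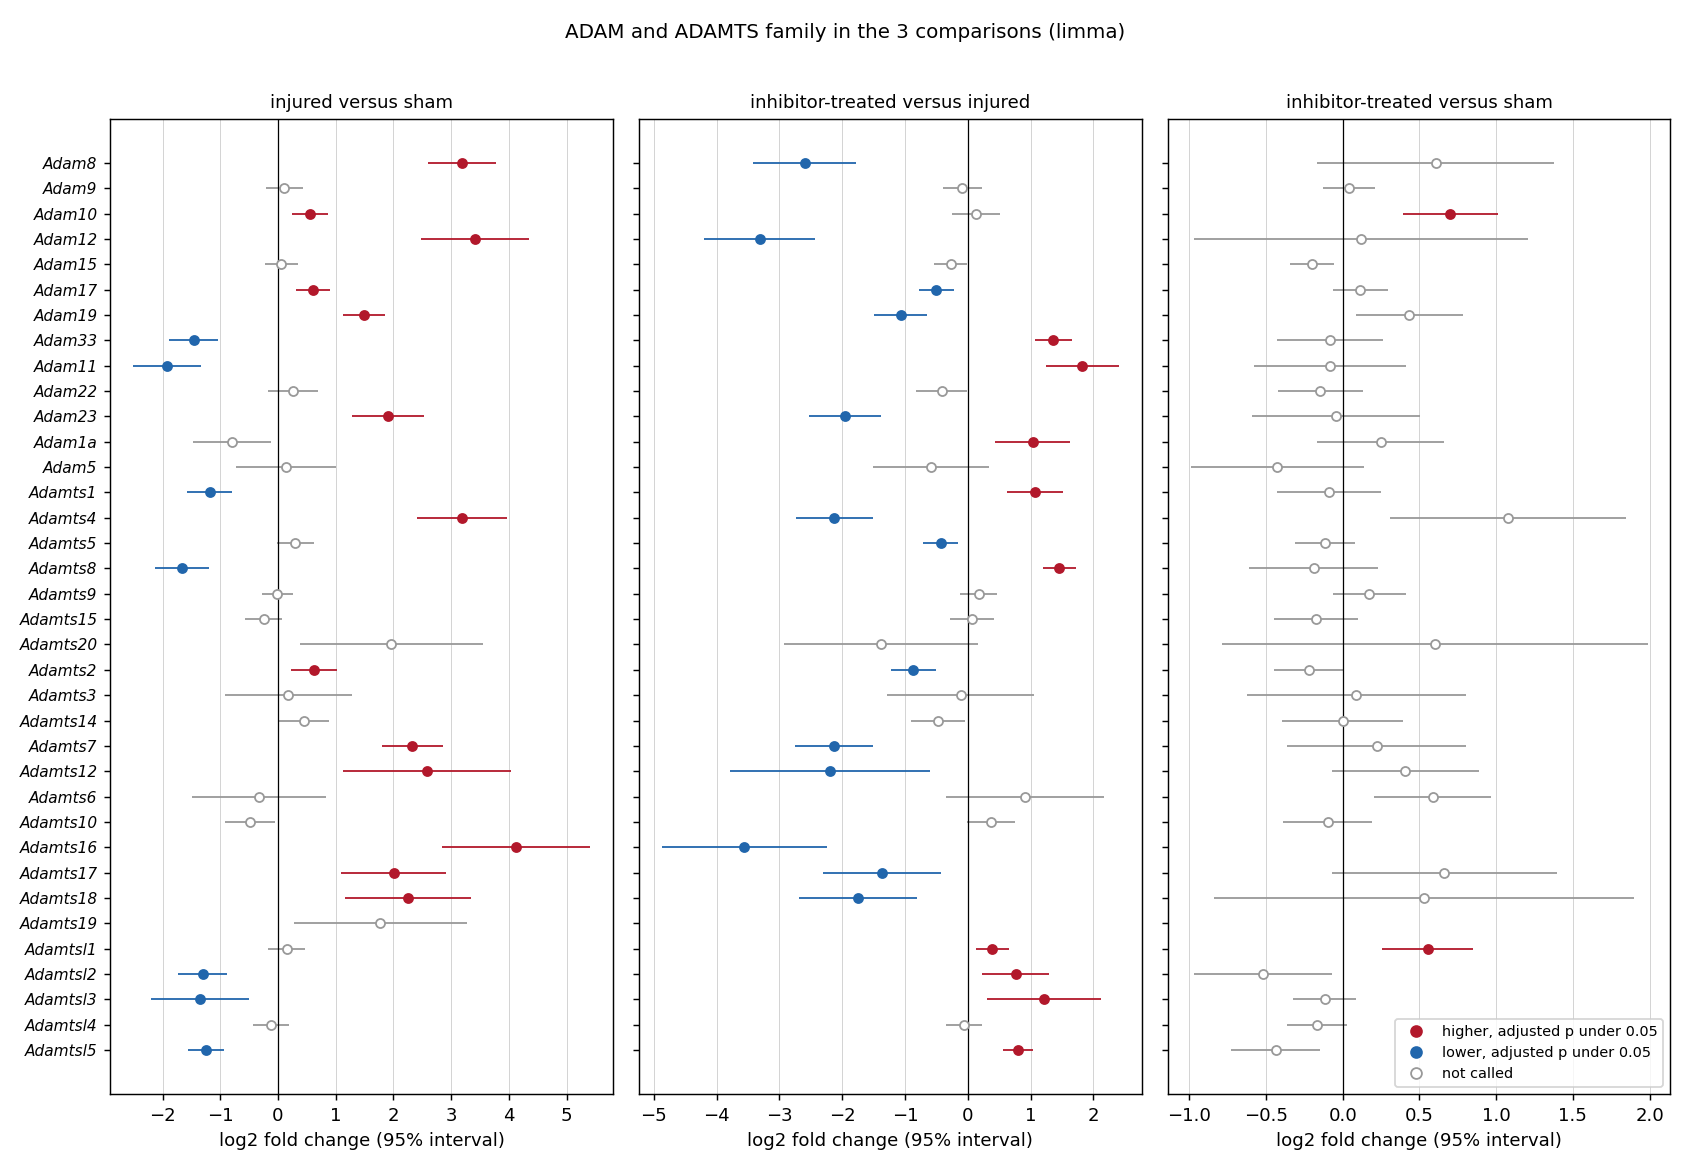
Log2 fold change of each member (rows, ordered by role) with its 95% interval in injured against sham, inhibitor-treated against injured, and inhibitor-treated against sham arteries, by limma. Filled points passed an adjusted p of 0.05. The points span -1.92 to 4.13 in injured against sham arteries, and -0.52 to 1.08 in inhibitor-treated against sham arteries.

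Of the 8 ADAM proteases of somatic tissues with a row, 5 rose and 1 fell in injured against sham arteries. Of the same 8, 1 rose and 4 fell in inhibitor-treated against injured arteries. These small counts, and those of the roles and lists below, stand against shares of all genes. The shares were 20.6% that rose and 16.8% that fell in injured against sham arteries. They were 17.6% and 18.5% in inhibitor-treated against injured arteries. ADAM8 (ENSMUSG00000025473, GRCm38 chr7:139978932-139992562, minus strand) is a sheddase best known from myeloid cells. Adam8 stood at 39.9, 56.0 and 97.2 normalised counts in inhibitor-treated libraries, at 322, 519 and 302 in injured libraries and at 32.04, 41.0 and 46.8 in sham libraries. Every injured library lay above all the others, and inhibitor-treated library 3 was the highest outside that group. Adam8 rose by a log2 fold change of 3.19 ± 0.26 (SE) in injured against sham arteries (adjusted p = 5.8e-05) and fell by 2.60 ± 0.35 in inhibitor-treated against injured arteries (adjusted p = 0.00137). Macrophage markers moved alongside it: 10 of 10 rose in injured against sham arteries and 10 of 10 fell in inhibitor-treated against injured arteries. Their part in the Adam8 result was not tested.

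ADAM12 (meltrin alpha; ENSMUSG00000054555, chr7:133883199-134232146, minus strand) is a protease of mesenchymal and regenerating muscle cells that cleaves insulin-like growth factor binding proteins. Adam12 had 40.8, 98.2 and 90.9 normalised counts in inhibitor-treated libraries, 808, 496 and 928 in injured libraries and 55.1, 41.0 and 128 in sham libraries. The lowest injured library was above every library of the other groups. Adam12 rose by 3.41 ± 0.41 log2 units in injured against sham arteries (adjusted p = 0.000358), and fell by 3.31 ± 0.38 in inhibitor-treated against injured arteries (adjusted p = 0.000668). Among the members, Adamts16 alone changed more in either comparison, and it met the filter on low genes only through its injured libraries. The lowest injured level was in library 2, which also carried the most skeletal muscle transcript. Of 10 skeletal muscle markers, 7 rose in injured against sham arteries and 2 fell in inhibitor-treated against injured arteries. Their part in the Adam12 values was not tested.

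ADAM19 (meltrin beta; ENSMUSG00000011256, chr11:46055992-46147343, plus strand) sheds neuregulin and is needed for heart development in mice. Adam19 stood at 495, 408 and 595 normalised counts in inhibitor-treated libraries, against 1167, 858 and 1126 in injured and 406, 386 and 320.1 in sham libraries. The injured libraries were the highest, and the inhibitor-treated libraries all lay above the sham libraries. The rise in injured against sham arteries was 1.49 ± 0.16 log2 units (adjusted p = 0.000192). The decrease in inhibitor-treated against injured arteries was -1.07 ± 0.18 (adjusted p = 0.00334), and the difference of 0.43 ± 0.15 between inhibitor-treated and sham arteries did not pass (adjusted p = 0.152). Of its exon bases, 8.25% overlap Gm16033 and 6.75% overlap Gm16034.

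Promoter windows from RefSeq (GRCm38.p6) were at hand for 21 of the 36 members. Shown are the 250 bases before the start site of those members that changed, whose window began near the annotated gene start and held one of the motifs searched. For Adam19 (chr11:46055734-46055983, plus strand), the capitals mark an AP-1 motif, TGANTCA, starting 131 bases before the start site, and a TEAD motif, GGAATG, read on the other strand, starting 32 bases before it. Windows searched ran from 250 bases before to 50 bases after the start site, on both strands. AP-1 motifs were found in 7.81% of the 32851 windows kept and in 1 of 23 member windows. TEAD motifs were found in 14.7% of all windows and in 2 of 23.
Adam19: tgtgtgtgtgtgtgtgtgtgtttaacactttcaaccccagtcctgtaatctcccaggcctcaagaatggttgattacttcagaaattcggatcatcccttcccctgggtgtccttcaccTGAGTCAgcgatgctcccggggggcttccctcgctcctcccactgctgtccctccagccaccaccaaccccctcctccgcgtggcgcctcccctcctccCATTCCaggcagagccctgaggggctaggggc

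ADAM10 (ENSMUSG00000054693) and ADAM17 (ENSMUSG00000052593) are the main sheddases of most cells. ADAM10 opens Notch receptors to signalling and cuts cadherins, and ADAM17 releases tumour necrosis factor and ligands of the EGF receptor. Adam10 had 3022, 3382 and 2376 normalised counts in inhibitor-treated libraries, 2270.5, 2669 and 3035 in injured libraries and 1931, 1600.3 and 1873 in sham libraries. The sham libraries were the lowest, and the ranges of inhibitor-treated and injured libraries overlapped. Adam10 rose by 0.55 ± 0.14 log2 units in injured against sham arteries (adjusted p = 0.0139) and by 0.70 ± 0.13 in inhibitor-treated against sham arteries (adjusted p = 0.0204). The difference in inhibitor-treated against injured arteries was 0.14 ± 0.16, with a 95% interval of -0.24 to 0.52, and did not pass (adjusted p = 0.537). The call in injured against sham arteries was lost without sham library 2 (adjusted p = 0.0671). That in inhibitor-treated against sham arteries was lost without inhibitor-treated library 1 (0.0775) or 2 (0.0638), or without sham library 1 (0.0631) or 2 (0.0771).

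Adam17 stood at 1174, 1088 and 1062 normalised counts in inhibitor-treated libraries, 1373, 1577 and 1802 in injured libraries and 1113, 986 and 995 in sham libraries. All injured libraries lay above all others, and the inhibitor-treated and sham ranges overlapped. It rose by 0.60 ± 0.13 log2 units in injured against sham arteries (adjusted p = 0.00623), and in inhibitor-treated against injured arteries it fell by 0.50 ± 0.12 (adjusted p = 0.0148). The second call was lost without inhibitor-treated library 2 (adjusted p = 0.0577) or 3 (adjusted p = 0.0554). Of the exon bases of Adam17, 4.35% overlap Iah1 on the other strand, and whether reads were counted by strand is not given in the sources used here.

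ADAM33 (ENSMUSG00000027318, chr2:131050591-131063814, minus strand) is expressed in smooth muscle and other mesenchymal cells and is known from genetic studies of human asthma. It was the single ADAM protease that fell in injured against sham arteries. Adam33 had 2903, 2585 and 2669 normalised counts in inhibitor-treated libraries, 1242, 934 and 1023 in injured libraries and 2334, 3708 and 2821 in sham libraries. The injured libraries were the lowest, and the other groups overlapped. The log2 fold change was -1.46 ± 0.18 in injured against sham arteries (adjusted p = 0.000452) and 1.36 ± 0.12 in inhibitor-treated against injured arteries (adjusted p = 0.000283). Contractile smooth muscle markers moved with it: 9 of 10 fell in injured against sham arteries and 9 rose in inhibitor-treated against injured arteries, and their part in the result was not tested.

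The remaining ADAM proteases, Adam9 and Adam15, are broadly expressed sheddases that passed in no comparison. In injured against sham arteries the log2 fold change was 0.11 ± 0.14 for Adam9 (adjusted p = 0.557) and 0.06 ± 0.13 for Adam15 (adjusted p = 0.736). Under alternative limma settings Adam15 was lower in inhibitor-treated against injured arteries. These were quantile normalisation (adjusted p = 0.0207), sample weights (0.00293) and leaving out injured library 3 (0.00963). Adam28 has no row in the tables and was not analysed here.

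ADAM11, ADAM22 and ADAM23 lack catalytic activity and serve in the nervous system as membrane receptors for the secreted LGI proteins. Adam11 (ENSMUSG00000020926) stood at 815, 618 and 522 normalised counts in inhibitor-treated libraries, 177, 137 and 243 in injured libraries and 809, 791 and 499 in sham libraries. Each injured library was below every other library. Adam11 fell by 1.92 ± 0.26 log2 units in injured against sham arteries (adjusted p = 0.000609) and rose by 1.83 ± 0.25 in inhibitor-treated against injured arteries (adjusted p = 0.00138). No other member fell as far in injured against sham arteries.

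Adam23 (ENSMUSG00000025964) had 89.2, 67.0 and 91.8 normalised counts in inhibitor-treated libraries, 283, 264 and 449 in injured libraries and 69.1, 76.2 and 117 in sham libraries. Here the injured libraries were the highest. Adam23 rose by 1.90 ± 0.27 log2 units in injured against sham arteries (adjusted p = 0.000863) and fell by 1.96 ± 0.24 in inhibitor-treated against injured arteries (adjusted p = 0.000953). Adam22 did not pass, at 0.26 ± 0.19 in injured against sham arteries (adjusted p = 0.316). Schwann cell markers, a sign of nerve, summed to between 5680 and 7348 normalised counts in inhibitor-treated libraries, 7787 and 9642 in injured libraries and 5898 and 6857 in sham libraries. Of these 10 markers, 8 rose in injured against sham arteries, and their part in the Adam11 and Adam23 values was not tested.

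Of 22 ADAM genes known mainly from the male reproductive tract, 2 had a row, Adam1a and Adam5. Adam1a, which encodes a subunit of a fertilin complex, had 123, 120.2 and 115 normalised counts in inhibitor-treated libraries, 52.5, 44.6 and 83.3 in injured libraries and 85.1, 131 and 92.6 in sham libraries. Injured libraries were the lowest. It rose by 1.03 ± 0.26 log2 units in inhibitor-treated against injured arteries (adjusted p = 0.0186), and its -0.80 ± 0.29 in injured against sham arteries did not pass (adjusted p = 0.0639). The assignment is uncertain, because 63.7% of the exon bases of Adam1a are shared with Gm42878 and 24.0% with Mapkapk5, both on the same strand. The call was also lost without inhibitor-treated library 1 (adjusted p = 0.0691), 2 (0.0629) or 3 (0.0510) and without injured library 1 (0.0509) or 2 (0.0514). Adam5, also of the reproductive tract, passed in no comparison, with 0.14 ± 0.38 in injured against sham arteries. All 10 testis markers looked for have no row.

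**Figure D2:**
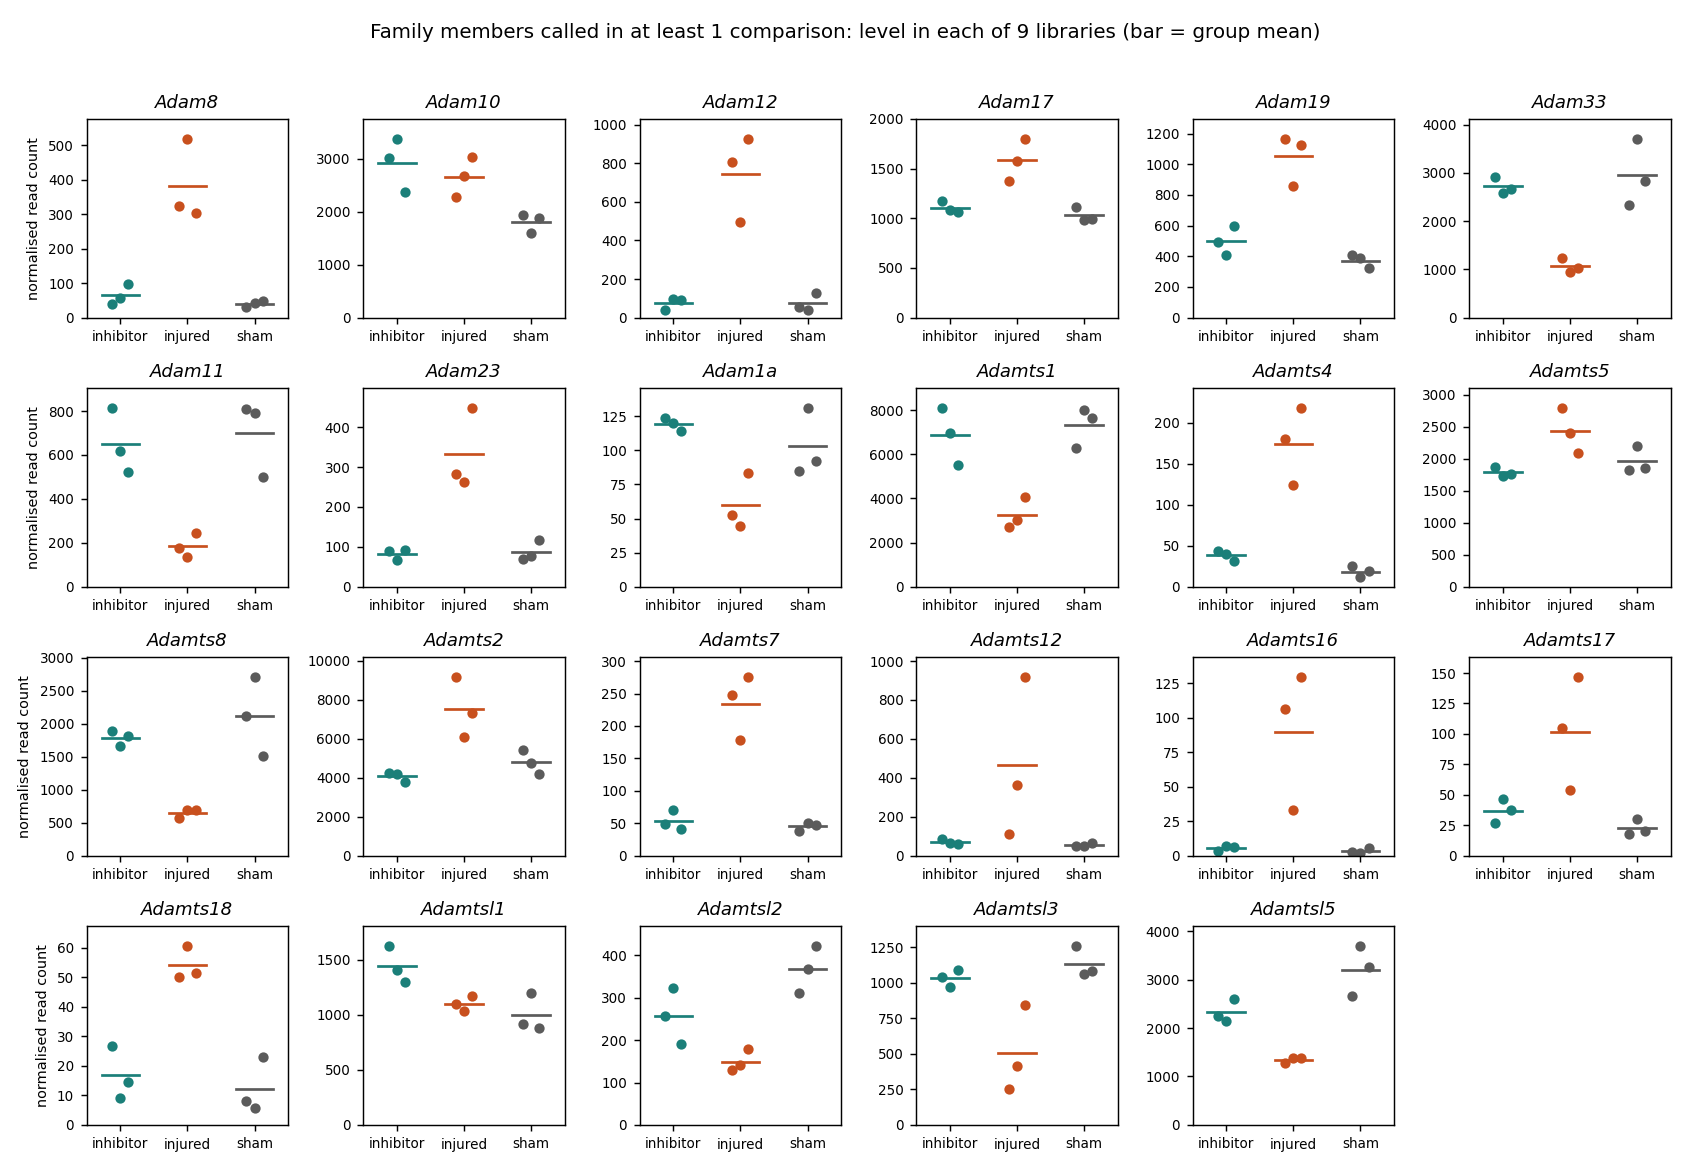
Normalised read count (vertical axes, each from 0) of the 23 members that passed in at least 1 comparison, with 1 point per library and a bar at the group mean, for inhibitor-treated, injured and sham arteries. The injured libraries stand above the others for genes such as Adam8 (302 to 519) and below them for genes such as Adamts8 (576 to 695), and Adamts12 and Adamtsl3 spread widely within the injured group.

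The ADAMTS proteoglycanases, which cleave versican, aggrecan and related hyalectans, moved in both directions. Of 7, 1 rose and 2 fell in injured against sham arteries, and 2 rose and 2 fell in inhibitor-treated against injured arteries. ADAMTS1 (ENSMUSG00000022893, chr16:85793827-85803113, minus strand) is a versican-cleaving protease of vessels and ovary. Adamts1 had 8106, 6949 and 5527 normalised counts in inhibitor-treated libraries, 2725, 3029.7 and 4046 in injured libraries and 6259, 8024 and 7621 in sham libraries. The injured libraries were the lowest, and the inhibitor-treated and sham libraries overlapped. Adamts1 fell by 1.18 ± 0.17 log2 units in injured against sham arteries (adjusted p = 0.000954) and rose by 1.08 ± 0.19 in inhibitor-treated against injured arteries (adjusted p = 0.00442).

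Per kilobase of exon, Adamts1 was the most abundant member in inhibitor-treated arteries, at 1294.0 ± 243.7 normalised counts (SD, n = 3), and in sham arteries, at 1377 ± 174. In injured arteries it had 616 ± 131 per kilobase (SD, n = 3), and Adamts2 ranked first at 807 ± 165, a difference no larger than their combined spread. The values of Adamts1, Adam9 (611 ± 105) and Adam10 (541 ± 77.8) in injured arteries lay within each other's spread. In the Adamts1 promoter (chr16:85803114-85803363, minus strand), a TATAAA box begins 32 bases before the start site and is shown in capitals. A TATAAA on the gene's strand within 60 bases before the start site was found in 2.87% of the RefSeq windows kept. It was in 2 of 23 member windows, those of Adamts1 and Adamtsl2.
Adamts1: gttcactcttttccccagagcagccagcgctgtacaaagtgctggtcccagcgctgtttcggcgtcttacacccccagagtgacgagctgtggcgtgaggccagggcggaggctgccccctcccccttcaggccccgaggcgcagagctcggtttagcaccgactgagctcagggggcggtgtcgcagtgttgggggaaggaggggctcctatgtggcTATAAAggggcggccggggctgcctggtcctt

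ADAMTS4 (aggrecanase-1; ENSMUSG00000006403, chr1:171250421-171260637, plus strand) was low outside injured arteries. Adamts4 had 43.7, 39.4 and 31.8 normalised counts in inhibitor-treated libraries, 180.2, 124 and 218 in injured libraries and 25.03, 11.7 and 18.5 in sham libraries. The groups did not overlap, with injured libraries the highest and sham libraries the lowest. Adamts4 rose by 3.19 ± 0.34 log2 units in injured against sham arteries (adjusted p = 0.000197) and fell by 2.13 ± 0.26 in inhibitor-treated against injured arteries (adjusted p = 0.0009). Its 1.08 ± 0.33 in inhibitor-treated against sham arteries did not pass (adjusted p = 0.111).

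ADAMTS5 (aggrecanase-2; ENSMUSG00000022894, chr16:85856173-85901828, minus strand) is encoded beside Adamts1, 53059 bases away on the same strand. Adamts5 had 1866, 1736 and 1757 normalised counts in inhibitor-treated libraries, 2798, 2407 and 2084 in injured libraries and 1818, 2204 and 1851 in sham libraries. The injured libraries lay above the inhibitor-treated ones and overlapped the sham ones. It fell by 0.43 ± 0.12 log2 units in inhibitor-treated against injured arteries (adjusted p = 0.028), and its 0.30 ± 0.14 in injured against sham arteries did not pass (adjusted p = 0.130). The call was lost without inhibitor-treated library 1 (adjusted p = 0.0706), 2 (0.0956) or 3 (0.0851) and without injured library 2 (0.0693).

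ADAMTS8 (ENSMUSG00000031994, chr9:30942562-30963838, plus strand) has proteoglycanase activity and is highly expressed in lung and heart. Adamts8 stood at 1892, 1663 and 1818 normalised counts in inhibitor-treated libraries, 576, 688 and 695 in injured libraries and 2122, 2712 and 1513 in sham libraries. The injured libraries were the lowest and the other groups overlapped. Adamts8 fell by 1.67 ± 0.20 log2 units in injured against sham arteries (adjusted p = 0.000388) and rose by 1.46 ± 0.11 in inhibitor-treated against injured arteries (adjusted p = 0.000134). Of its exon bases, 10.6% overlap the antisense gene Gm29724.

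Adamts15 lies 20109 bases from Adamts8 on the opposite strand and passed in no comparison, with -0.25 ± 0.14 in injured against sham arteries (adjusted p = 0.199). Adamts9 and Adamts20, which clear versican in mouse development, did not pass either. Adamts9 had a log2 fold change of -0.01 ± 0.12 in injured against sham arteries (adjusted p = 0.941), and Adamts20 had 1.97 ± 0.69 (adjusted p = 0.0545). Adamts20 had at most 67 reads in a library and passed under 9 of 18 alternative settings.

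Both pairs of adjacent genes gave a view within each library that needs no scaling between libraries, and they were chosen for it after their values were seen. For each Adamts5 read, there were 4.344, 4.004 and 3.146 Adamts1 reads in inhibitor-treated libraries, 0.974, 1.26 and 1.94 in injured libraries and 3.44, 3.64 and 4.12 in sham libraries. For each Adamts15 read, there were 0.950, 1.06 and 1.19 Adamts8 reads in inhibitor-treated libraries, 0.304, 0.436 and 0.491 in injured libraries and 1.22, 1.26 and 0.806 in sham libraries. In both pairs every injured library had the lower ratio, and the inhibitor-treated and sham ratios overlapped.

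**Figure D3:**
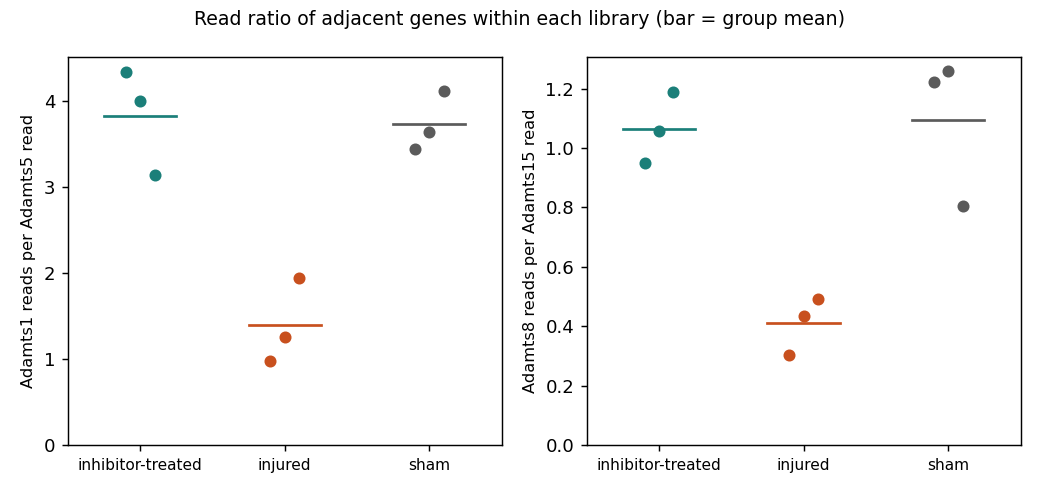
Reads of Adamts1 per read of its neighbour Adamts5 (left) and of Adamts8 per read of its neighbour Adamts15 (right), with 1 point per library and a bar at the group mean, for inhibitor-treated, injured and sham arteries. The injured libraries lie at 0.974 to 1.94 on the left and at 0.304 to 0.491 on the right, below all libraries of the other groups.

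The procollagen N-propeptidases ADAMTS2, ADAMTS3 and ADAMTS14 trim the amino-terminal propeptide of fibrillar procollagens. Adamts2 (ENSMUSG00000036545, chr11:50602084-50807573, plus strand) had 4224, 4201 and 3790 normalised counts in inhibitor-treated libraries, 9175, 6112 and 7308 in injured libraries and 5445, 4752 and 4208 in sham libraries. The injured libraries were the highest, and the inhibitor-treated and sham ranges overlapped. Adamts2 rose by 0.63 ± 0.17 log2 units in injured against sham arteries (adjusted p = 0.0208) and fell by 0.87 ± 0.15 in inhibitor-treated against injured arteries (adjusted p = 0.00452). The first call was lost without sham library 2 (adjusted p = 0.0744) or 3 (adjusted p = 0.0743). Adamts14 did not pass, at 0.46 ± 0.19 in injured against sham arteries (adjusted p = 0.0932), nor did Adamts3, at 0.18 ± 0.48 (adjusted p = 0.795).

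ADAMTS7 and ADAMTS12 share a mucin domain and cleave COMP, and the human ADAMTS7 locus is tied to coronary artery disease. Both rose in injured against sham arteries and fell in inhibitor-treated against injured arteries. Adamts7 (ENSMUSG00000032363, chr9:90163069-90208071, plus strand) had 48.4, 70.6 and 40.9 normalised counts in inhibitor-treated libraries, 248, 178 and 276 in injured libraries and 38.1, 50.4 and 46.8 in sham libraries. The injured libraries stood clear of the rest. The log2 fold changes were 2.33 ± 0.23 in injured against sham arteries (adjusted p = 0.000139) and -2.12 ± 0.27 in inhibitor-treated against injured arteries (adjusted p = 0.000966).

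Adamts12 (ENSMUSG00000047497) had 88.3, 67.0 and 61.8 normalised counts in inhibitor-treated libraries, 110, 362 and 919 in injured libraries and 52.1, 48.1 and 63.2 in sham libraries. Injured libraries were the highest but differed among themselves by a factor of 8.37, more than for any other member in that group. The log2 fold changes were 2.59 ± 0.64 in injured against sham arteries (adjusted p = 0.0129) and -2.20 ± 0.68 in inhibitor-treated against injured arteries (adjusted p = 0.0401). The first call was lost without sham library 2 (adjusted p = 0.0528). The second was lost without inhibitor-treated library 1 (0.0846), 2 (0.103) or 3 (0.102), and without injured library 2 (0.102) or 3 (0.0506), where the log2 fold change without injured library 3 was -1.46. Quantile normalisation also ended it (0.0544).

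Of 4 ADAMTS proteases with less defined substrates, 3 rose in injured against sham arteries. In inhibitor-treated against injured arteries, which share the injured libraries, 3 were tested and all 3 fell. ADAMTS16 (ENSMUSG00000049538, chr13:70727802-70841811, minus strand) can cleave fibronectin and is known from blood pressure genetics in rats. Adamts16 was nearly silent outside injured arteries, with 3.797, 7.34 and 6.36 normalised counts in inhibitor-treated libraries, 106, 33.2 and 129.7 in injured libraries and 3.00, 2.34 and 5.44 in sham libraries. These rest on 4, 8 and 7 reads in inhibitor-treated libraries, 89, 35 and 151 in injured libraries and 3, 2 and 5 in sham libraries. Its log2 fold changes were the largest of any member: 4.13 ± 0.56 in injured against sham arteries (adjusted p = 0.000677) and -3.56 ± 0.56 in inhibitor-treated against injured arteries (adjusted p = 0.0026).

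Adamts17, mutated in a human Weill-Marchesani-like syndrome, had 26.6, 46.8 and 37.3 normalised counts in inhibitor-treated libraries, 105, 54.1 and 147 in injured libraries and 18.0, 30.5 and 20.7 in sham libraries. Injured libraries were the highest, library 2 being close to the inhibitor-treated range. Adamts17 rose by 2.01 ± 0.40 log2 units in injured against sham arteries (adjusted p = 0.00455) and fell by 1.36 ± 0.40 in inhibitor-treated against injured arteries (adjusted p = 0.0343). The second call was lost without inhibitor-treated library 1 (adjusted p = 0.115), 2 (0.0530) or 3 (0.0782) and without injured library 1 (0.0927) or 3 (0.0690). It was also lost with quantile normalisation (0.0691) and with sample weights (0.0791), where the log2 fold change was -0.66.

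Adamts18, needed for eye development in humans and mice, had 26.6, 9.17 and 14.5 normalised counts in inhibitor-treated libraries, 50.1, 60.7 and 51.5 in injured libraries and 8.01, 5.86 and 22.9 in sham libraries. The injured libraries agreed closely and lay above the rest. The changes were 2.26 ± 0.48 log2 units in injured against sham arteries (adjusted p = 0.00635) and -1.75 ± 0.40 in inhibitor-treated against injured arteries (adjusted p = 0.0132). Adamts19 had at most 23 reads in a library and did not pass in injured against sham arteries (adjusted p = 0.0641).

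ADAMTS6 and ADAMTS10 are tied to fibrillin microfibrils, and mutations of human ADAMTS10 cause Weill-Marchesani syndrome. Neither passed in any comparison by limma in the main setting. Adamts6 had 347, 278 and 391 normalised counts in inhibitor-treated libraries, 74.0, 197 and 389.9 in injured libraries and 263, 229.8 and 187 in sham libraries. The injured libraries spanned a factor of 5.27 and overlapped both other groups, while the inhibitor-treated libraries all lay above the sham libraries. The log2 fold change of Adamts6 in inhibitor-treated against sham arteries was 0.59 ± 0.17 (limma adjusted p = 0.0840), and it was higher with DESeq2 (adjusted p = 0.0315) and in the authors' deposited table (adjusted p = 0.0316). Adamts10 had a log2 fold change of -0.48 ± 0.19 in injured against sham arteries (adjusted p = 0.0807) and 0.37 ± 0.17 in inhibitor-treated against injured arteries (adjusted p = 0.121). It passed in the first with all 9 libraries in 1 limma fit (0.0456), with sample weights (0.00397) and without injured library 3 (0.0117). In the second it passed with sample weights (0.00224) and without injured library 3 (0.00555), as did Adamts6 (0.0292 and 0.027).

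The 5 ADAMTS-like proteins included no gene that rose in injured against sham arteries, where 3 fell. There were 4 that rose in inhibitor-treated against injured arteries. ADAMTSL5 (ENSMUSG00000043822, chr10:80339110-80348412, minus strand) binds fibrillin microfibrils. Adamtsl5 had 2258, 2156 and 2600.0 normalised counts in inhibitor-treated libraries, 1273, 1387 and 1377 in injured libraries and 2668, 3698 and 3265 in sham libraries. The groups did not overlap, with the inhibitor-treated libraries between the others. Adamtsl5 fell by 1.25 ± 0.14 log2 units in injured against sham arteries (adjusted p = 0.000217) and rose by 0.80 ± 0.10 in inhibitor-treated against injured arteries (adjusted p = 0.00103). Its -0.44 ± 0.13 in inhibitor-treated against sham arteries did not pass (adjusted p = 0.0879).

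ADAMTSL2 (ENSMUSG00000036040) binds the latent TGF-beta binding protein LTBP1 and is mutated in human geleophysic dysplasia. Adamtsl2 had 257, 323 and 192 normalised counts in inhibitor-treated libraries, 129, 140.3 and 179.5 in injured libraries and 310.4, 368 and 423 in sham libraries. Injured libraries were the lowest, and inhibitor-treated library 3 came close to them. It fell by 1.30 ± 0.19 log2 units in injured against sham arteries (adjusted p = 0.000872) and rose by 0.76 ± 0.23 in inhibitor-treated against injured arteries (adjusted p = 0.035). The second call was lost without inhibitor-treated library 1 (adjusted p = 0.106) or 2 (0.117) and without injured library 1 (0.0941) or 2 (0.0949). Its promoter (chr2:27079129-27079378, plus strand) holds the other TATAAA box, 30 bases before the start site, in capitals.
Adamtsl2: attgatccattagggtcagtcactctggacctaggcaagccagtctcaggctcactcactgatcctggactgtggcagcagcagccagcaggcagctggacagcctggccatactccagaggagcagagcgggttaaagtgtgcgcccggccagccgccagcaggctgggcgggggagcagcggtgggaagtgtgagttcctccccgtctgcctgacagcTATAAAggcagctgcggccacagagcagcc

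Of the other motifs, the RUNX motif TGTGGT lay in 3 of 23 member windows and in 16.8% of all windows. The serum response factor CArG box, in 1.63% of all windows, and the cyclic AMP response element (TGACG followed by TCA), in 1.79%, were found in 0 member windows. A lack of a match says only that the letters are not in the window.

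ADAMTSL3 (punctin-2; ENSMUSG00000070469) is a matrix glycoprotein with variants linked to human height. Adamtsl3 had 1040.3, 973 and 1091 normalised counts in inhibitor-treated libraries, 252, 414 and 848 in injured libraries and 1261, 1061 and 1081 in sham libraries. Every injured library was below all others, although injured library 3 was close to them. Adamtsl3 fell by 1.35 ± 0.37 log2 units in injured against sham arteries (adjusted p = 0.0204) and rose by 1.22 ± 0.39 in inhibitor-treated against injured arteries (adjusted p = 0.0451). The first call was lost without sham library 1 (adjusted p = 0.0792) or 2 (0.0615). The second was lost without any single inhibitor-treated library (0.116, 0.0982 and 0.110 without libraries 1, 2 and 3) and without injured library 1 (0.0829, with a log2 fold change of 0.81) or 2 (0.115). With edgeR it was lost too, under TMM (0.0857) and RLE scaling (0.0827).

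ADAMTSL1 (punctin-1; ENSMUSG00000066113) is a related glycoprotein. Adamtsl1 had 1627, 1411 and 1300 normalised counts in inhibitor-treated libraries, 1101, 1032 and 1174 in injured libraries and 917, 1195 and 879.9 in sham libraries. The inhibitor-treated libraries were the highest, and the injured and sham libraries overlapped. Adamtsl1 rose by 0.39 ± 0.11 log2 units in inhibitor-treated against injured arteries (adjusted p = 0.0318) and by 0.55 ± 0.13 in inhibitor-treated against sham arteries (adjusted p = 0.0437). The call against injured arteries was lost without inhibitor-treated library 1 (adjusted p = 0.120) or 2 (0.0874) and without injured library 1 (0.0631) or 2 (0.0980). It was lost as well with quantile normalisation (0.0670). The call against sham arteries was lost without inhibitor-treated library 1 (0.143) or 2 (0.118) and without sham library 1 (0.145) or 3 (0.102). It was also lost with a mean of at least 50 (0.0517), quantile normalisation (0.0579) and edgeR under TMM (0.0599) or RLE scaling (0.0600), and 9 of 19 alternatives kept it. Adamtsl4, known from human lens dislocation, did not pass in any comparison. Adamts13, the von Willebrand factor protease of liver stellate cells, was not analysed here.

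The proteins that restrain or mature these proteases gave a mixed picture. Of 8 metalloprotease inhibitors and clearance factors tested, 1 rose and 2 fell in injured against sham arteries, while 3 rose and 1 fell in inhibitor-treated against injured arteries. Timp1, a tissue inhibitor of metalloproteases, had 236, 409 and 234 normalised counts in inhibitor-treated libraries, 2863, 1635 and 1176 in injured libraries and 359, 312 and 353 in sham libraries. Timp1 rose by 2.36 ± 0.28 log2 units in injured against sham arteries (adjusted p = 0.00035). Reck, a membrane-anchored inhibitor, fell by 1.15 ± 0.17 (adjusted p = 0.0011), and Sdc4, a syndecan that acts on ADAMTS5, fell by 1.10 ± 0.20 (adjusted p = 0.00336). Timp3, the inhibitor of ADAM17 and the aggrecanases, was named after its values were seen and did not pass. It had 9666, 9732 and 10573 normalised counts in inhibitor-treated libraries, 3139, 5957 and 10340.4 in injured libraries and 10249.7, 10389.8 and 10542 in sham libraries, so 2 injured libraries were low and 1 was not.

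Of 14 genes for maturation and trafficking, 2 rose and 4 fell in injured against sham arteries, and 5 rose and 3 fell in inhibitor-treated against injured arteries. Tspan14, a tetraspanin that escorts ADAM10, rose by 1.28 ± 0.14 log2 units in injured against sham arteries (adjusted p = 0.00023), and the ADAM10 escort Tspan5 fell by 0.72 ± 0.10 (adjusted p = 0.000778). Pofut2, which adds fucose to thrombospondin repeats, fell by 1.05 ± 0.13 (adjusted p = 0.000385), and the proprotein convertase Pcsk6 fell by 0.60 ± 0.16 (adjusted p = 0.0164). One further escort of ADAM10, Tspan33, named after its values were seen, had 652, 899 and 439.9 normalised counts in inhibitor-treated libraries, 27.4, 72.1 and 17.2 in injured libraries and 12.02, 17.6 and 9.80 in sham libraries. It rose by 5.54 ± 0.29 log2 units in inhibitor-treated against sham arteries (adjusted p = 7.8e-05). Tspan33 is also known from red cell precursors. The erythroid marker sums given above, mostly Alas2, were highest in the same libraries, and their part in this value was not tested. Of the 10 erythroid markers, 8 had a row throughout, and Epb42 and Rhag were at 0 in at least 1 library.

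The substrates of the proteases are described list by list. Of 12 hyalectan genes and partners, 4 rose and 2 fell in injured against sham arteries, with a median log2 fold change of 0.13. The aggrecan gene Acan rose by 2.33 ± 0.15 (adjusted p = 2.0e-05), the hyaluronan synthases Has2 by 2.73 ± 0.29 (adjusted p = 0.000189) and Has1 by 2.33 ± 0.28 (adjusted p = 0.000379). The link protein gene Hapln1 fell by 4.44 ± 0.43 (adjusted p = 0.000118), with 90.2, 118 and 117 normalised counts in inhibitor-treated libraries, 3.58, 6.64 and 13.7 in injured libraries and 166, 154 and 205 in sham libraries. The versican gene Vcan, named after its values were seen, did not pass, at -0.47 ± 0.21 (adjusted p = 0.107). In inhibitor-treated against injured arteries 2 of the 12 rose and 4 fell, among them Acan, by 2.18 ± 0.26.

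Of 10 procollagen genes and C-propeptidases, 8 rose and 1 fell in injured against sham arteries (median 1.44), and 1 rose and 9 fell in inhibitor-treated against injured arteries (median -1.49). In injured against sham arteries Col1a1 rose by 2.02 ± 0.26 log2 units (adjusted p = 0.000551), Col3a1 by 1.91 ± 0.29 (adjusted p = 0.0011), the C-propeptidase Tll1 by 2.19 ± 0.44 (adjusted p = 0.00499) and the cartilage collagen Col2a1 by 6.08 ± 0.31 (adjusted p = 1.3e-05). Col2a1 had 342, 569 and 297 normalised counts in injured libraries and 4.01, 4.69 and 5.44 in sham libraries. It met the filter on low genes only through the injured libraries. Fibroblast markers summed to between 46518 and 49195 normalised counts in inhibitor-treated libraries, 105745 and 137446 in injured libraries and 58470 and 72650 in sham libraries, with none of the 10 markers at 0, and their part in these values was not tested. Among 14 fibrillin and microfibril genes, 4 rose and 6 fell in injured against sham arteries (median -0.42). Fbn2, the fibrillin of development, rose by 7.35 ± 0.71 (adjusted p = 0.000122), Mfap2 by 2.18 ± 0.25 (adjusted p = 0.000276) and Ltbp2 by 1.67 ± 0.16 (adjusted p = 0.000102). Fbn2 had 1036, 204 and 279 normalised counts in injured libraries and was near the floor in sham libraries, at 2.00, 0 and 3.27. It too met the filter only through the injured libraries. Thsd4, itself an ADAMTS-like gene that the name rule does not take in, fell by 3.22 ± 0.17 (adjusted p = 1.4e-05). It had 7220, 6893 and 7823 normalised counts in inhibitor-treated libraries, 611, 752 and 972 in injured libraries and 7785, 7092 and 6506 in sham libraries.

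The COMP, LGI and von Willebrand factor list had 4 of 7 genes higher and 1 lower in injured against sham arteries (median 1.04), and 1 higher and 5 lower in inhibitor-treated against injured arteries (median -1.21). Comp, the substrate of ADAMTS7 and ADAMTS12, had 1055, 1084 and 894 normalised counts in inhibitor-treated libraries, 3555, 2697 and 3462 in injured libraries and 1267, 1006 and 984 in sham libraries. Comp rose by 1.57 ± 0.15 log2 units in injured against sham arteries (adjusted p = 0.00012) and fell by 1.67 ± 0.14 in inhibitor-treated against injured arteries (adjusted p = 0.000191). Thbs1, which encodes thrombospondin-1, rose by 2.59 ± 0.27 in injured against sham arteries (adjusted p = 0.000165). Of the LGI ligands, Lgi1 rose by 1.57 ± 0.33 (adjusted p = 0.00642) and Lgi3 fell by 1.16 ± 0.19 (adjusted p = 0.00167).

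Among substrates of the membrane sheddases, 14 of 19 shed cytokines, receptors and adhesion proteins rose and 2 fell in injured against sham arteries (median 1.12). In inhibitor-treated against injured arteries 4 of 20 rose and 15 fell (median -0.96). In injured against sham arteries the macrophage receptor Trem2 rose by 5.05 ± 0.25 log2 units (adjusted p = 1.1e-05), Tnf by 4.54 ± 0.56 (adjusted p = 0.000421) and the decoy receptor Il1r2 by 3.18 ± 0.50 (adjusted p = 0.00149). Tnf had 43.0, 119 and 33.5 normalised counts in injured libraries and 1.00, 1.17 and 2.18 in sham libraries. It met the filter on low genes only through the injured libraries. Several genes of this list are leukocyte genes. Neutrophil markers summed to between 1926 and 2299 normalised counts in inhibitor-treated libraries, 1267 and 6263 in injured libraries and 29.3 and 62.1 in sham libraries. Of 8 tested in inhibitor-treated against injured arteries, 1 rose, 4 fell and 3 did not pass. Ltf had 2.85, 3.67 and 0.909 in inhibitor-treated and 60.8, 632 and 221 in injured libraries. Cxcr2 had 91.1, 113 and 235 against 39.4, 83.4 and 23.2. The part of the neutrophil markers, and that of the macrophage markers given above, was not tested. Of the 10 neutrophil markers, Ly6g and Elane lacked a row in some table, and Camp, Cxcr2, Mpo and Ngp were at 0 in at least 1 library.

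Of 13 Notch and other ADAM10 substrates, 7 rose and 3 fell in injured against sham arteries, and 3 rose and 7 fell in inhibitor-treated against injured arteries. In injured against sham arteries Dll4, an endothelial Notch ligand, rose by 2.07 ± 0.21 log2 units (adjusted p = 0.000172), Notch1 by 0.95 ± 0.19 (adjusted p = 0.00482) and Dll1 by 0.90 ± 0.22 (adjusted p = 0.0139), while the ephrin Efna5 fell by 2.10 ± 0.15 (adjusted p = 3.0e-05). Endothelial markers summed to between 23009 and 24018 normalised counts in inhibitor-treated libraries, 29783 and 35061 in injured libraries and 18367 and 26926 in sham libraries, none of the 10 being at 0. Their part in the Dll4 value was not tested. Of 9 EGF receptor ligands and receptors, 2 rose and 2 fell in injured against sham arteries. Egfr rose by 0.70 ± 0.17 (adjusted p = 0.0124) and Erbb3 by 1.28 ± 0.36 (adjusted p = 0.0245), while Erbb4 fell by 3.52 ± 0.30 (adjusted p = 7.0e-05) and its ligand betacellulin, Btc, by 2.39 ± 0.27 (adjusted p = 0.000271). Of these 9, 4 rose and 1 fell in inhibitor-treated against injured arteries.

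The calls in these lists in inhibitor-treated against sham arteries stand against 5.15% of all genes that rose and 0.934% that fell. There were 0 rises and 0 falls by limma among the inhibitors, the 13 fibrillin genes tested and the EGF list. There were 1 rise in the maturation list, 1 rise and 1 fall in the hyalectan list, 2 falls among 9 procollagen genes, 1 rise in the shed list, 1 fall in the Notch list and 1 rise in the COMP list. The single call in the COMP list was Thbs1, at 1.76 ± 0.25 log2 units (adjusted p = 0.00543), named after its values were seen.

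**Figure D4:**
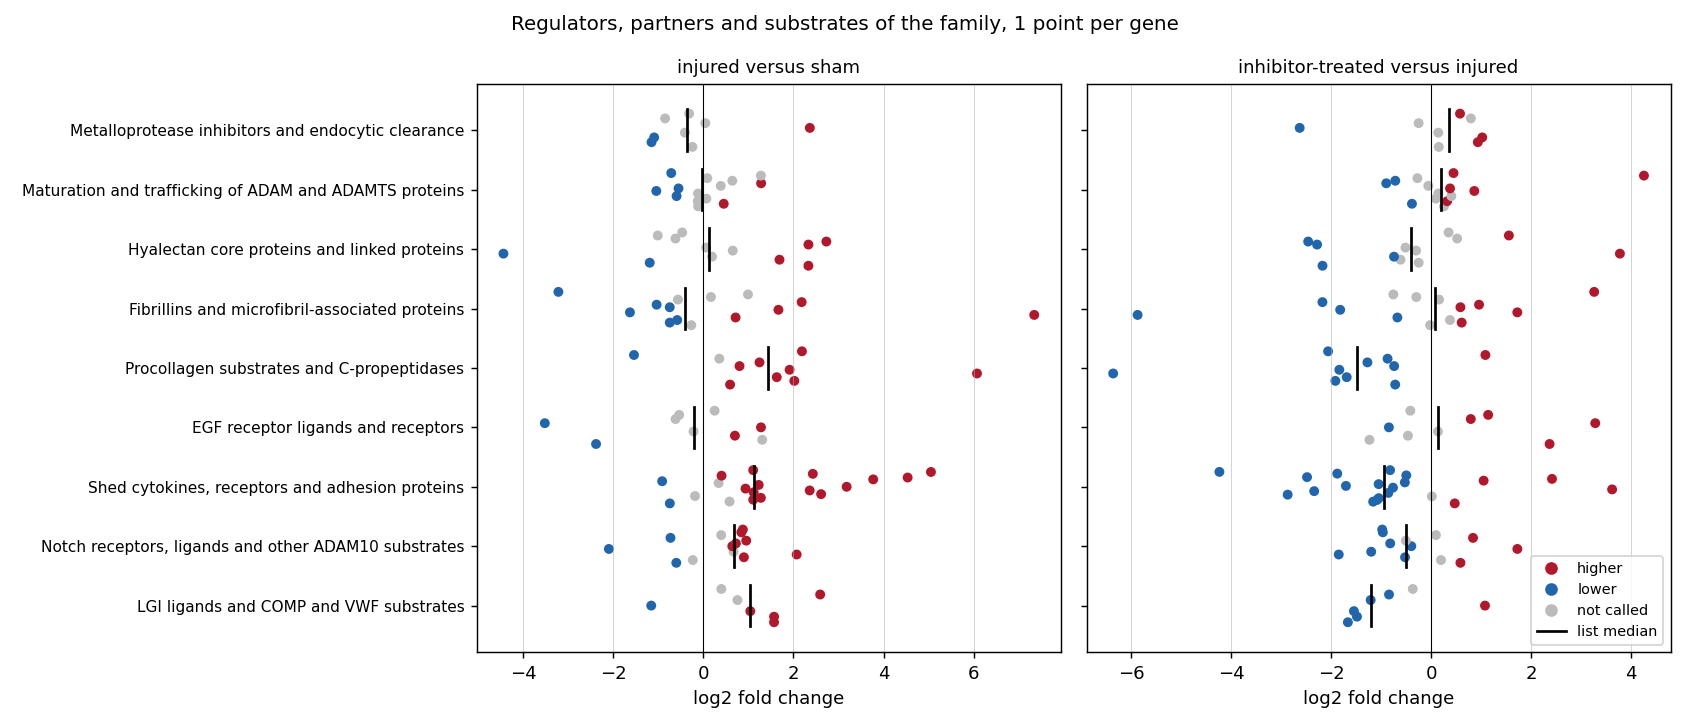
Log2 fold change of each gene in 9 lists of inhibitors, partners and substrates of the family, in injured against sham arteries (left) and inhibitor-treated against injured arteries (right), with 1 point per gene, coloured by the call, and a black line at the list median. The procollagen list has a median of 1.44 on the left and -1.49 on the right, and the fibrillin list, at -0.42 and 0.06, holds large changes of both signs. The comparisons share the injured libraries.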

How the data were processed

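RNA of 9 artery libraries was sequenced, and the authors deposited 3 tables, 1 per pair of groups. Per the file headers, each gives normalised values of every library and, from the authors' own comparison, the log2 fold change with raw and adjusted p-values. The deposited normalised signal is the reads of a gene divided by 1 factor per library, set by the authors separately in each table, as read from the values. Dividing by the value of 1 read returned whole reads (within 0.01) for 100% of values, and of 143802 read counts present in 2 tables, 0 differed. The genome build was mm10 (GRCm38) per the submitters' processing notes, while aligner, counting program and use of strand are not given in sources used here. The authors' deposited log2 fold changes and p-values served only as an alternative.

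For each pair of groups, limma (version 3.58.1, under R 4.3.3) was fitted to log2(normalised count + 1) of that pair's table. The variance was trended, the model held the group alone, and genes needed a mean of at least 10 normalised counts. Adjustment was by Benjamini-Hochberg over all genes, with a threshold of 0.05. A pseudocount understates the change of low genes. The script was tested on simulated data. Levels across the 3 groups were rescaled from whole reads by median of ratios over 9 libraries. Alternatives used other pseudocounts, filters and normalisations, edgeR 4.0.16, DESeq2 1.42.0, a joint fit, sample weights, a replicate block and libraries left out. Gene positions are from GENCODE M21 and promoters from RefSeq. No pair of libraries within a group was a repeat within sampling noise.

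The members and the gene lists were chosen with earlier results of these data known. Members that passed in at least 1 comparison with a mean of at least 50 normalised counts in a group were described library by library, with Adam10 and Adam17 in any case. Of each list, up to 4 genes with the largest change among those that passed in injured against sham arteries were named. Some genes of these lists and overlaps are not reported here.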

Additional observations from a re-analysis of the deposited data

How the results depend on the processing

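Over the 3 comparisons, 1974 values were recomputed under alternative settings. Of these, 1847 kept their direction and side of the threshold, or changed sign by less than their standard error without a call. A call was lost in 74 and gained in 38. The members that gained one were Adam1a, Adam15, Adamts5, Adamts6, Adamts10, Adamts14, Adamts15, Adamts19, Adamts20 and Adamtsl5. Another 15 changed sign by at least their standard error, with a call under neither setting. A change of sign with a call under either setting was found for 0 values. In injured against sham arteries the counts stayed between 10 and 15 members higher and between 6 and 10 lower, against 13 and 7. In inhibitor-treated against injured arteries, the 9 members higher became 5 without the libraries that stood apart (injured 2, sham 3 and inhibitor-treated 3, as each comparison holds them) and 5 to 11 when 1 library was left out, with 5 without inhibitor-treated library 1 or 2 or injured library 1 or 2. The 13 lower stayed between 9 and 14. In inhibitor-treated against sham arteries, the 2 members higher became 1 with a mean of at least 50, with quantile normalisation, with edgeR under TMM or RLE scaling, and without the libraries that stood apart. It became 3, with Adamts6 added, with DESeq2 and in the authors' deposited table. Leaving out 1 library gave 0 to 2. The 0 lower became 1, Adamtsl5, with DESeq2 and in the authors' deposited table, and 0 to 1 when 1 library was left out, with 1 without sham library 1. The cause was not tested. Over all genes, higher calls in inhibitor-treated against injured arteries numbered 2976, against 5276 with sample weights and 1565 without the libraries that stood apart, and lower calls 3123, against 5375 and 1730. Lower calls in injured against sham arteries numbered 2730, against 4616 and 1608. They also numbered 1743 without sham library 2. Higher calls in inhibitor-treated against injured arteries numbered 1921 without inhibitor-treated library 1 and 1965 without library 2, the one with the most skeletal muscle transcript in its group, which the setting without the libraries that stood apart keeps. Higher calls in inhibitor-treated against sham arteries numbered 832, against 544 with a mean of at least 50, 470 without sham library 1, 526 without sham library 2, 548 without inhibitor-treated library 1 and 500 without inhibitor-treated library 2. Lower calls in inhibitor-treated against sham arteries numbered 151, against 289 with DESeq2, 39 with all 9 libraries in 1 fit and as few as 33 with 1 library left out.

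Deviations from the group mean had correlations of -0.0761 to 0.192 between same-numbered libraries and of -0.213 to 0.183 between the others. Deviations within a group of 3 sum to 0, so this cannot decide whether replicate numbers pair the samples. With the replicate block, 14 members were higher and 7 lower in injured against sham arteries, 7 and 13 in inhibitor-treated against injured arteries, and 1 and 0 in inhibitor-treated against sham arteries. Under the block Adamtsl1 lost its call in inhibitor-treated against injured arteries (adjusted p = 0.0528) and in inhibitor-treated against sham arteries (adjusted p = 0.0524), and Adamtsl2 lost its call in inhibitor-treated against injured arteries.

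Without the libraries that stood apart, Adam17 lost its call in injured against sham arteries (adjusted p = 0.0658) and Adamts18 in inhibitor-treated against injured arteries (adjusted p = 0.110), as did the members named above as lost without single libraries, apart from Adamts2 and Adamts17, and apart from Adam10 in inhibitor-treated against sham arteries. Adamts16, Adamts18, Adamts19 and Adamts20 rest on few reads, and Adamts19 could not be tested in 2 of the 3 comparisons. A mean of at least 50 left low members without a value. Adam8, Adam11, Adam12, Adam19, Adam23, Adam33, Adamts1, Adamts4, Adamts7, Adamts8 and Adamtsl5 passed under 19 of 19 alternatives in injured against sham and in inhibitor-treated against injured arteries, and Adamts16 under 18 of 18.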
